A study of Mus musculus with 6 samples.

Results

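Superoxide dismutases and the enzymes that remove peroxide were followed as 10 genes, taken by symbol from the 55487 genes of the deposited tables. They were the superoxide dismutases Sod1, Sod2 and Sod3, the catalase gene Cat, the glutathione peroxidases Gpx1 and Gpx4, and the peroxiredoxins Prdx1, Prdx2, Prdx5 and Prdx6. Of the 10 members, 9 had enough counts to be tested and Sod3 had none. RNA was sequenced from primitive macrophages, the first macrophages of the embryo and the precursors of microglia, grown from mouse embryonic stem cells over 12 days with the growth factors M-CSF, IL-3, SCF, VEGF, FGF2, activin A and BMP-4. The 6 libraries were 3 of Ts1Cje cells and 3 of wild-type cells, both from stem cells kept in LIF before differentiation. Ts1Cje mice model Down syndrome and carry a rearrangement in which a distal segment of chromosome 16 is present in 3 copies, the extra one joined to chromosome 12. The labels number lots 1 to 3 in each genotype and do not say whether a lot is a separate stem cell line or a separate culture. P-values therefore measure the spread between these samples, which may be technical, and in bulk RNA a change in the share of cells cannot be told apart from a change of RNA per cell.

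Superoxide is made by the NADPH oxidase of phagocytes and leaks from the respiratory chain. Superoxide dismutases turn it into hydrogen peroxide: Sod1 uses copper and zinc in the cytosol, Sod2 uses manganese in mitochondria, and Sod3 is a secreted copper and zinc enzyme. Catalase breaks hydrogen peroxide down in peroxisomes, glutathione peroxidases reduce it at the expense of glutathione, and peroxiredoxins reduce it through reactive cysteines that are mostly restored by thioredoxin. SOD1 lies on human chromosome 21, and a surplus of it over the peroxide-removing enzymes has long been discussed in Down syndrome. In Ts1Cje the Sod1 gene marks the edge of the segment: the rearrangement arose in cells in which Sod1 had been targeted, and the Sod1 copy on the rearranged chromosome is known not to give active enzyme.

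Total counts were 26146044 to 32658148 in the Ts1Cje libraries and 25484294 to 26372632 in the wild-type libraries. Wild-type replicate 1 stood apart on the first principal component, with 49.6% of the variance over 10797 genes: the Ts1Cje libraries scored 11.8 to 28.5, wild-type replicate 1 -63.4 and the other wild-type libraries -13.4 and 24.0. All 9 macrophage markers listed, among them Csf1r and Spi1, had counts in every library. Markers of proliferation summed to 585 to 981 CPM (counts scaled to library size) in Ts1Cje libraries, against 281 CPM in wild-type replicate 1 and 773 and 899 CPM in the other wild-type libraries. The macrophage markers summed to 9064 to 17811 CPM in Ts1Cje and 7785 to 17602 CPM in wild-type libraries. Lists of other cell types were lower. Megakaryocyte and mast cell markers summed to at most 145 CPM in Ts1Cje and 186 CPM in wild-type libraries. The highest sums were 111.5 and 60.0 CPM for mesenchymal and endothelial markers, and 0.828 and 0.224 CPM for neutrophil markers, in the same order. Epithelial markers summed to 6.63, 8.86 and 5.08 CPM in Ts1Cje replicates 1 to 3. They summed to 21.4, 0.299 and 0.225 CPM in wild-type replicates 1 to 3, the highest being wild-type replicate 1. Red cells are rich in catalase, Gpx1 and Prdx2, so their markers were checked. Of 13 erythroid markers 12 had any count and 1, Epor, had counts in every library, with sums of 37.8 to 67.0 CPM in Ts1Cje and 42.7 to 78.3 CPM in wild-type libraries.

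Several members carry sequence features that bear on how their RNA is read or counted. Gpx1 and Gpx4 are selenoproteins, in which a TGA codon inside the reading frame is read as selenocysteine, the residue that reacts with peroxide. A scan of the annotated coding sequences found such a codon at position 47 of 201 in Gpx1 and at position 129 of 253 in the longest Gpx4 isoform, and none in the other 8 members. The windows of 63 bases, from GENCODE M21 transcripts on the plus strand of mm10 (chr9:108339421-108339483 for Gpx1 and chr10:80054707-80054769 for Gpx4), are shown with the TGA codon in capitals. The window of Gpx4-ps2, a transcribed pseudogene of Gpx4 at chr10:45875438-45875500, is shown beside them, with its difference from Gpx4 in capitals as well.
Gpx1: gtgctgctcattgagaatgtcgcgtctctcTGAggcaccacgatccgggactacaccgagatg
Gpx4: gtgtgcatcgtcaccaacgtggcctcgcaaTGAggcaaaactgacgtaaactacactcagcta
Gpx4-ps2: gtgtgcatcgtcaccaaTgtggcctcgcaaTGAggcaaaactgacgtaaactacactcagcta
Gpx4-ps2 differs from Gpx4 by 1 base in this window, C18T, counted from 1 at the window's 5′ end with the Gpx4 base first. Over the 509 aligned bases of the coding sequence they were 99.6% identical, so a short read can fit both places.

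The promoters of 8 members were found in the RefSeq promoter table (GRCm38.p6), with 11 entries in all because Gpx4 has several starts; Sod3 and Prdx6 were not matched. The core of the antioxidant response element, the site of the transcription factor NRF2, was searched as TGACNNNGC on both strands from 250 bases before to 50 after each start. It was present in 2 of the 11 entries, Sod1 and Prdx1, and in 12.4% of all 32851 promoters of the table. Both matches run on the opposite strand of the gene, and a match of letters does not show that the factor binds. The 2 matched promoters are shown with the match in capitals and 20 bases on either side. A link between a match and the genotype values was not tested.
Sod1, chr16:90220686-90220734, plus strand, match 56 bases before the start: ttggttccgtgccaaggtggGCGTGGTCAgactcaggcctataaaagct
Prdx1, chr4:116685446-116685494, plus strand, match 133 bases before the start: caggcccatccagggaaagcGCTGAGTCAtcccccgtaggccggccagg

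By the deposited values, primitive macrophages of both genotypes had high RNA of Prdx1 and Gpx1 and low RNA of the dismutases. On the length of its coding transcript Sod1 stood higher, as set out below. In TPM, the deposited abundance per gene length, scaled to the same sum in every library, Prdx1 averaged 2459 over the 6 libraries, rank 39 of all genes, and Gpx1 averaged 1582, rank 54. Cat followed at 443 TPM and Gpx4 at 371, then Prdx5 at 181, Prdx2 at 138, Prdx6 at 60.7, Sod1 at 26.7 and Sod2 at 22.1. In this order the libraries of Prdx1 and Gpx1 overlapped, as did those of Cat and Gpx4, of Prdx5 and Prdx2, and of Sod1 and Sod2. The other neighbours in the order did not overlap in any library.

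**Figure D1:**
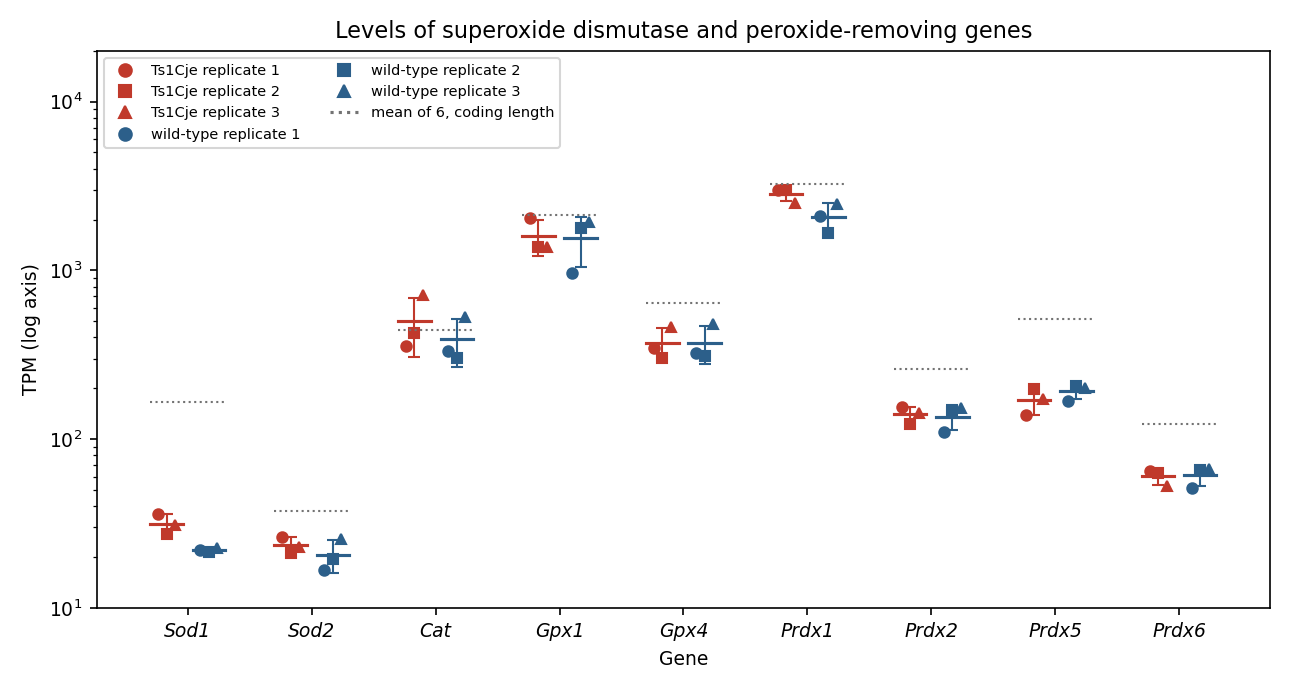
TPM of the 9 members with counts (log axis) in each of 3 Ts1Cje (red, left) and 3 wild-type libraries (blue, right); horizontal lines are genotype means and error bars SD (n = 3). Dotted lines give the mean of all 6 after the length behind the TPM is replaced by that of the longest coding transcript, which lifts Sod1 to 165 TPM and leaves Cat at 443 TPM.

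The level of Sod1 depends on the gene length used. The deposited TPM rested on 3970 bases for Sod1, which is the sum of all annotated exons, 3329 of them found in a transcript with a retained intron alone. The coding Sod1 transcript has 641 bases. On coding transcript lengths Sod1 averaged 165 TPM, 6.19 times its deposited level, and moved from rank 8 to rank 7 of the 10, above Prdx6 at 122. The ratio of the lengths was 2.83 for Prdx5, which became 513 TPM, 2.01 for Prdx6 and 1 for Cat, so that Gpx4 at 642 and Prdx5 both came out above Cat at 443. The length is the same in all libraries of a gene, so ratios between libraries do not depend on it.

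Across the genotypes no member passed the test over all genes. By edgeR's quasi-likelihood test with Benjamini-Hochberg adjustment over 13821 genes, 0 of the 9 tested members were called, where 1 gene in all, Dnah11, was called, 0.00724% of those tested. An unadjusted p under 0.05 was reached by 1 member, Sod1, which was higher in Ts1Cje; 2.99% of all genes did so in that direction, 2.8% in the other and 5.79% in either. Without wild-type replicate 3 that share was 16.1% of all genes, with 2 members, Sod1 and Prdx1. DESeq2 called 0 members and 0.405% of all genes. Of the 9 log2 fold changes (Ts1Cje over wild-type) 7 were above 0 and 2 below, and their median was 0.06, beside 49.2% positive and a median of -0.0075 over all genes tested. Adjusted p ranged from 0.792 to 0.990 over the members (edgeR). In 2 members, Sod1 and Prdx1, each Ts1Cje library exceeded every wild-type library in CPM, an arrangement found in 6.38% of all genes tested, and no member had the opposite, found in 5.72%.

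**Figure D2:**
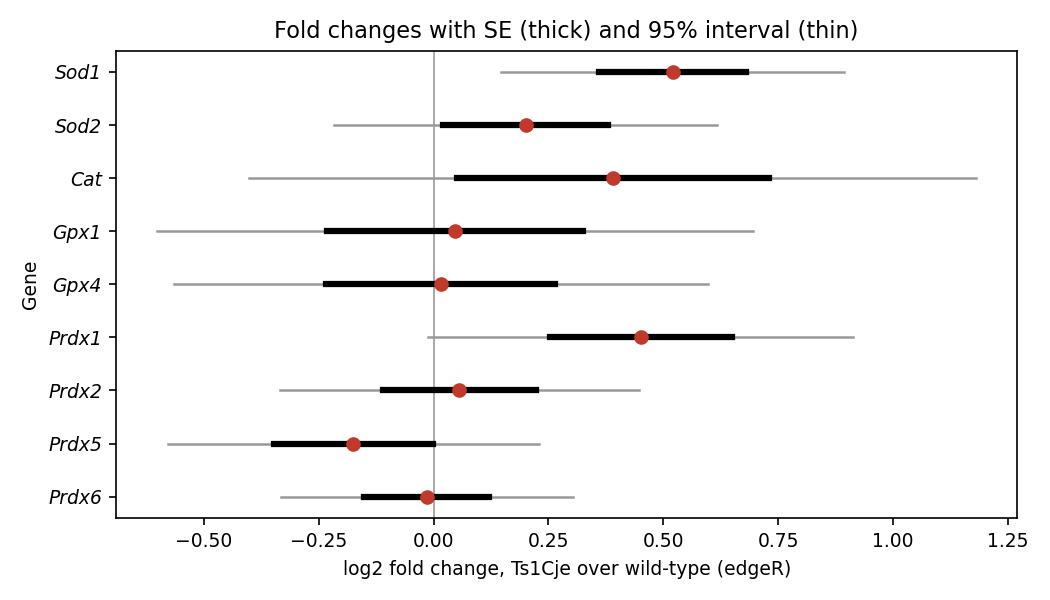
log2 fold change of each tested member, Ts1Cje over wild-type, from edgeR (3 libraries each), with the SE as a thick and the 95% interval as a thin bar. Sod1 at 0.52 is the member whose interval lies above 0; the interval of Prdx1 reaches -0.01.

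Sod1, the cytosolic dismutase, was at 36.1, 27.2 and 30.9 TPM in Ts1Cje replicates 1 to 3, against 21.9, 21.5 and 22.6 TPM in wild-type replicates 1 to 3. The wild-type libraries lay close together, the Ts1Cje libraries spread more widely, and the groups did not overlap. Means were 31.4 ± 4.45 TPM in Ts1Cje and 22.0 ± 0.56 TPM in wild-type (SD, n = 3 each). The edgeR log2 fold change was 0.52 ± 0.16 (SE), a fold of 1.43, with a 95% interval of 0.15 to 0.89 on the log2 scale, an unadjusted p of 0.0127 and an adjusted p of 0.792. Without Ts1Cje replicate 1 the unadjusted p was 0.0525 and the log2 fold change 0.44. Counts assigned to copies of Sod1 elsewhere in the genome were few. The pseudogene Gm8566, 97.8% identical over 462 bases, had 80 counts in all 6 libraries, 1.32% of the Sod1 count. How reads that fit several places were handled is not given, so shared reads may be missing from either gene.

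Sod1 lies on chromosome 16 at 90220754 to 90226329 (mm10, plus strand), and its 3′ end overlaps the span of Scaf4, a gene for a protein that acts in transcript termination, on the other strand. The 2 spans share 650 bases, but in GENCODE M21 no base (0 bases) belongs to exons of both. Within the overlap lie a Scaf4 exon of 121 bases at 90225680 to 90225800, from a noncoding transcript inside the last Sod1 intron, and the last Sod1 exon of 180 bases, inside a Scaf4 intron. Counts over exons therefore keep the genes apart except for reads from introns or unspliced RNA, which were not tested. Scaf4 had 1491, 1023 and 1198 counts in Ts1Cje and 733, 897 and 918 counts in wild-type libraries. Its log2 fold change was 0.33 ± 0.15 (SE; unadjusted p = 0.0543, edgeR). The ratio of Sod1 to Scaf4 counts was 1.05, 0.920 and 1.08 in Ts1Cje and 1.004, 0.847 and 0.852 in wild-type libraries, which overlapped (exact two-sided permutation p = 0.2, and 0.5 adjusted over 5 ratios; 0.1 is the smallest that 3 against 3 can give).

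The fold change of Sod1 was nearer to the median of the genes beyond it on the chromosome than to that of the genes before it. For the 57 tested genes from just beyond Sod1 to the end of Zbtb21 the median log2 fold change was 0.61, with quartiles of 0.37 and 0.82, and 19 of them were below Sod1. In 32 of the 57 each Ts1Cje library exceeded every wild-type library, against 6.38% of all genes. Of the 371 tested genes of chromosome 16 before Sod1 the median was 0.05, and 322 were below Sod1. Over all genes tested, 22.5% had an absolute log2 fold change of at least that of Sod1, so its value alone does not place it with either side. Among the 10 tested genes nearest before it all 10 were below Sod1 (median 0.07), and among the 10 nearest beyond it 3 were (median 0.65). On the near side, Tiam1, an activator of the GTPase Rac, had 15, 5 and 20 counts in Ts1Cje and 6, 19 and 4 in wild-type libraries, too few to place (log2 fold change 0.25 ± 0.86, SE). On the far side, the kinase gene Hunk was also sparse, at 22, 30 and 3 counts in Ts1Cje and 12, 0 and 20 in wild-type libraries. Mis18a, which helps load the centromere histone and lies 0.499 Mb beyond Sod1, had a log2 fold change of 0.53 ± 0.28 (SE; unadjusted p = 0.0921, edgeR). How much Sod1 RNA came from the rearranged chromosome cannot be told from counts per gene.

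**Figure D3:**
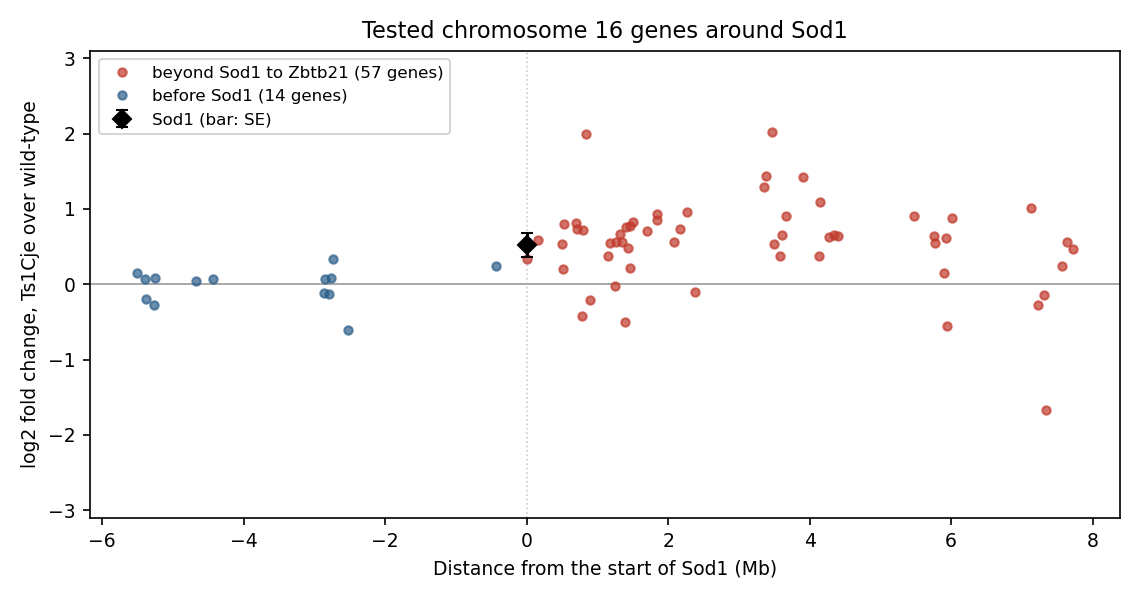
log2 fold change (Ts1Cje over wild-type, edgeR) of tested chromosome 16 genes by distance in Mb from the start of Sod1, for the 57 genes beyond it up to Zbtb21 (red) and the 14 genes within 10 Mb before it (blue); the black diamond is Sod1 with its SE. Sod1 at 0.52 lies between the quartiles of the genes beyond it, 0.37 and 0.82, and above the 14 genes drawn before it. Of all 371 tested genes before it, 322 were below Sod1.

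Nt5dc3 and Nle1 were among the 3 genes whose libraries followed Sod1 most closely. Likeness was the root mean square difference in log2 CPM, centred on each gene's mean, over the 6 libraries and 10796 other genes. It was 0.0568 for Nt5dc3, with a log2 fold change of 0.50, and 0.0737 for Nle1, with a log2 fold change of 0.39.

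Sod2, the mitochondrial dismutase, was at 26.4, 21.2 and 23.0 TPM in Ts1Cje, against 16.8, 19.6 and 25.5 TPM in wild-type libraries. The lowest and the second highest value were both wild-type, so the groups overlapped. Its log2 fold change was 0.20 ± 0.18 (SE), with a 95% interval of -0.22 to 0.62. It was 0.076 without wild-type replicate 1 and 0.37 without wild-type replicate 3. Sod3, the secreted dismutase, had 0 counts in all 6 libraries. A count of 0 allows up to 3 counts, or 0.0919 to 0.115 CPM in Ts1Cje and 0.114 to 0.118 CPM in wild-type libraries, for counting error only.

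Cat, the catalase gene, was at 354, 426 and 712 TPM in Ts1Cje, against 333, 303 and 531 TPM in wild-type libraries. Replicate 3 was the highest library in both genotypes, and the spread inside a genotype exceeded the difference between them. Means were 498 ± 189.5 TPM in Ts1Cje and 389 ± 124 TPM in wild-type (SD, n = 3 each), and the log2 fold change was 0.39 ± 0.34 (SE), with an interval of -0.40 to 1.18. Without Ts1Cje replicate 3 it was -0.04. That library also had the highest count of Hmox1, heme oxygenase, at 31434, against 14634 and 11965 in the other Ts1Cje libraries; its part in the value of Cat was not tested.

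Gpx1, the main cytosolic glutathione peroxidase, was at 2055, 1373 and 1383 TPM in Ts1Cje, against 966, 1775 and 1938 TPM in wild-type libraries. The lowest value was wild-type replicate 1, the library with the lowest sum of proliferation markers, 281 CPM; the part of that in the value was not tested. The log2 fold change was 0.05 ± 0.28 (SE), with an interval of -0.60 to 0.69, and it was -0.20 without wild-type replicate 1. Gpx4, which reduces lipid peroxides in membranes, was at 344, 301 and 463 TPM in Ts1Cje, against 324, 311 and 481 TPM in wild-type libraries. Like Cat it was highest in replicate 3 of both genotypes, and its log2 fold change was 0.02 ± 0.25 (SE), with an interval of -0.57 to 0.60.

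The Gpx4 count is uncertain because of the pseudogene shown with its sequence. Gpx4-ps2 had 18%, 21.1% and 18.2% of the Gpx4 count in Ts1Cje libraries and 20.8%, 18.7% and 21.3% in wild-type libraries, which is 7078 counts beside 36174 over all 6. The share was nearly the same in every library. Adding both left Ts1Cje at 257 ± 73.2 CPM and wild-type at 257 ± 63.1 CPM (SD, n = 3 each), a difference of -0.01 in log2 (exact two-sided permutation p = 0.9). The sum cannot settle the Gpx4 level, because the handling of reads that fit both places is not given and shared reads may be missing from it. No other member had a copy with as large a share of its count: the pseudogene Gm21399 had 0.536% of the Prdx1 count, and Prdx6b, a copy of Prdx6, had 1 count in all.

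Prdx1, a cytosolic peroxiredoxin, was at 2989.7, 3004 and 2519 TPM in Ts1Cje, against 2092, 1665 and 2484 TPM in wild-type libraries. All Ts1Cje libraries were higher, but Ts1Cje replicate 3 and wild-type replicate 3 nearly met. Means were 2837 ± 276 TPM in Ts1Cje and 2080.3 ± 409 TPM in wild-type (SD, n = 3 each). The log2 fold change was 0.45 ± 0.20 (SE), a fold of 1.37, with an interval of -0.01 to 0.91, an unadjusted p of 0.0547 and an adjusted p of 0.792 (edgeR). Without wild-type replicate 2, the lowest library, it was 0.30.

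The other 3 peroxiredoxins overlapped between the genotypes. Prdx2, the peroxiredoxin best known from red cells, was at 154, 124 and 143 TPM in Ts1Cje, against 110.3, 144 and 154 TPM in wild-type libraries, with a log2 fold change of 0.06 ± 0.17 (SE). Prdx6, which has a single reactive cysteine and also acts on phospholipids, was at 64.9, 63.3 and 52.7 TPM in Ts1Cje, against 51.6, 65.4 and 66.3 TPM in wild-type libraries, with a log2 fold change of -0.02 ± 0.14 (SE). For both, the lowest wild-type value was replicate 1. Their 95% intervals were -0.33 to 0.45 and -0.33 to 0.30, which span 0 and do not exclude differences up to those limits in either direction.

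Prdx5, found in mitochondria, peroxisomes and the cytosol, was at 138, 198 and 172 TPM in Ts1Cje, against 169, 207 and 201 TPM in wild-type libraries. Ts1Cje replicate 1 was the lowest, and the log2 fold change was -0.17 ± 0.17 (SE), with an interval of -0.58 to 0.23. Without Ts1Cje replicate 1 it was -0.024. Prdx5 lies on chromosome 19, whose genes differed between libraries within a genotype. Relative to the wild-type mean, the median of 400 genes of that chromosome was -0.20, 0.09 and -0.04 in Ts1Cje replicates 1 to 3 and -0.17, -0.03 and 0.23 in wild-type replicates 1 to 3 (log2 CPM). The part of this in the value of Prdx5 was not tested.

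**Figure D4:**
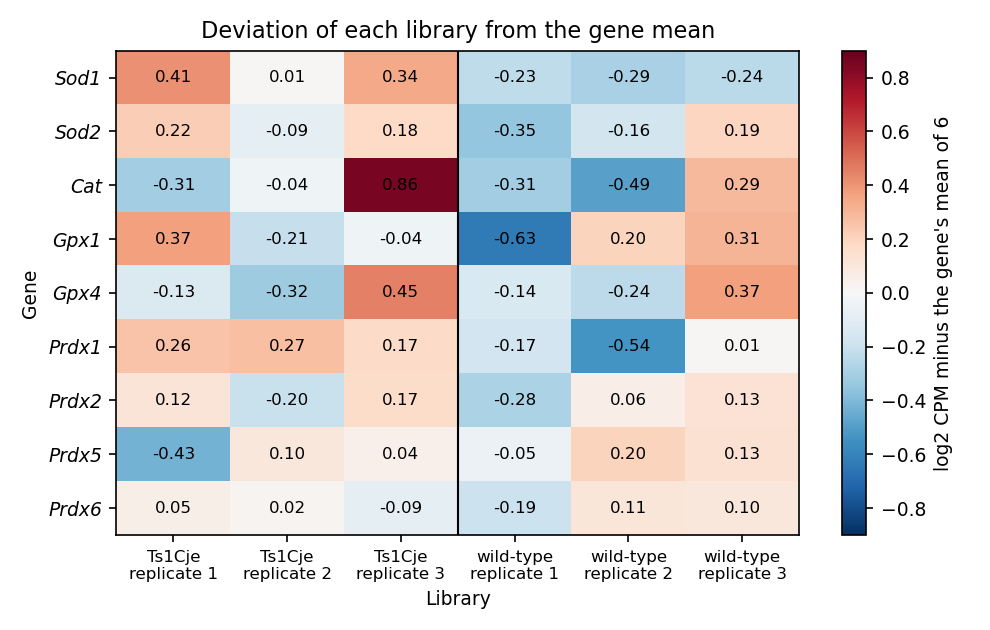
log2 CPM of each tested member minus its mean over the 6 libraries, Ts1Cje on the left and wild-type on the right, with red above and blue below the mean. Sod1 is below its mean in all 3 wild-type libraries, Cat and Gpx4 are highest in replicate 3 of both genotypes, and Gpx1 is lowest in wild-type replicate 1 at -0.63.

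The balance of Sod1 against the enzymes that remove its product was set out as counts of Sod1 per 100 counts of another gene in the same library, a measure chosen after the values were seen. Against Gpx1 it was 4.84, 5.46 and 6.15 in Ts1Cje, and 6.25, 3.34 and 3.21 in wild-type libraries (exact two-sided permutation p = 0.4, adjusted p = 0.667 over 5 ratios). Wild-type replicate 1 lay above every Ts1Cje library while the other two lay below. Against Cat it was 15.5, 9.70 and 6.59 in Ts1Cje, and 9.99, 10.8 and 6.47 in wild-type libraries (exact permutation p = 0.9). Against Prdx1 it was 1.57, 1.18 and 1.6 in Ts1Cje, and 1.37, 1.68 and 1.19 in wild-type libraries (exact permutation p = 1.0). Against Sod2 it was 54.2, 51.0 and 53.3 in Ts1Cje, and 51.8, 43.5 and 35.1 in wild-type libraries (exact permutation p = 0.2). The genotypes overlapped in each of these ratios.

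Genes around the members were read from 7 lists with 80 genes, of which 69 were tested. The edgeR test over all genes called 0 of the 69, as did DESeq2. In Ts1Cje 4 of them were higher and 4 were lower with an unadjusted p under 0.05, 11.6% of the 69, beside 5.79% of all genes. That count of 8 depended on single libraries: it was 22 without wild-type replicate 3, 31.9% beside 16.1% of all genes, and 2 to 7 without any other library. The median log2 fold change of the 69 was 0.14, beside -0.0075 over all genes tested.

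**Figure D5:**
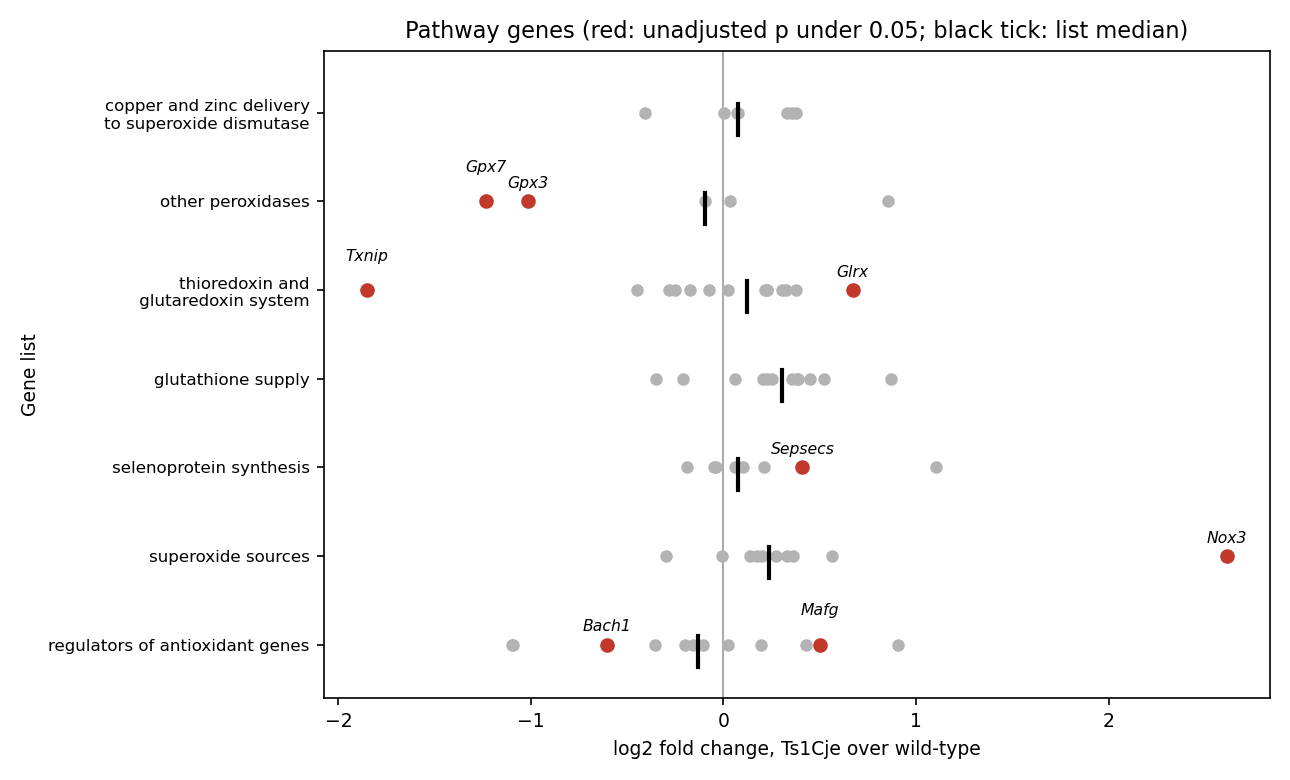
log2 fold change (Ts1Cje over wild-type, edgeR) of the 69 tested pathway genes, a row for each list, with list medians as black ticks. The 8 genes with an unadjusted p under 0.05 are red and named, 4 on each side of 0.

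Copper and zinc reach the dismutase through transporters and chaperones, of which all 7 listed were tested, with a median of 0.08 and 0 at an unadjusted p under 0.05. Slc31a1, the copper importer, was at 179, 169.7 and 196 TPM in Ts1Cje, against 120.0, 159 and 159 TPM in wild-type libraries, which did not overlap (log2 fold change 0.33 ± 0.17, SE). Atp7a, which exports copper, had -0.41 ± 0.20, and the metallothioneins Mt1 and Mt2, which bind copper and zinc, had 0.35 ± 0.39 and 0.37 ± 0.95 (SE). Ccs, the chaperone that loads copper into Sod1, was chosen after its values were seen. It was at 39.9, 59.9 and 58.4 TPM in Ts1Cje, against 40.8, 50.4 and 60.8 TPM in wild-type libraries, a log2 fold change of 0.08. Ccs lies on chromosome 19 like Prdx5, and the part of that chromosome's differences between libraries in its value was not tested.

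Of 11 other peroxidases 5 were tested, with a median of -0.10, and 2 were lower in Ts1Cje at an unadjusted p under 0.05. Gpx3, a secreted glutathione peroxidase, was at 566, 711 and 672 TPM in Ts1Cje, against 777, 1981 and 1220.0 TPM in wild-type libraries. All Ts1Cje libraries lay below all wild-type ones, and wild-type replicate 2 was far above the rest. Its log2 fold change was -1.01 ± 0.32 (SE; unadjusted p = 0.0144, adjusted p = 0.792, edgeR), and its mean was 649.6 TPM in Ts1Cje and 1326 TPM in wild-type, above that of Cat in each. Gpx7, of the endoplasmic reticulum, was at 2.84, 6.86 and 2.42 TPM in Ts1Cje, against 6.05, 10.4 and 11.9 TPM in wild-type libraries (log2 fold change -1.23 ± 0.50, SE; unadjusted p = 0.0418). Prdx3, the mitochondrial peroxiredoxin, had -0.10 ± 0.14 and lies on chromosome 19 like Prdx5, and Gpx8 had 24, 20 and 0 counts in Ts1Cje and 20, 0 and 0 in wild-type libraries.

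All 14 genes of the thioredoxin and glutaredoxin system were tested (median 0.12), with 1 gene at an unadjusted p under 0.05 in each direction. Txnip, an inhibitor of thioredoxin, was at 169, 87.2 and 149 TPM in Ts1Cje, against 741, 592 and 129 TPM in wild-type libraries. Wild-type replicate 3 lay among the Ts1Cje libraries and the other wild-type ones far above them (log2 fold change -1.85 ± 0.60, SE; unadjusted p = 0.0157). Glrx, a glutaredoxin, had 0.67 ± 0.26 (SE; unadjusted p = 0.0335); its groups did not overlap in CPM but did in TPM, with 24.2 TPM in Ts1Cje replicate 3 and 26.6 TPM in wild-type replicate 3. Txn2, mitochondrial thioredoxin, had 0.23 ± 0.12, and Txn1, the cytosolic one, -0.28 ± 0.16 (SE).

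Glutathione supply was read from 13 genes, of which 12 were tested. Their median log2 fold change was 0.30, with 10 above 0 and 2 below, and 0 had an unadjusted p under 0.05. Wild-type replicate 1 had the lowest TPM in 8 of the 12, and in 28 of the 69 tested genes of all lists. The share over all genes was not computed. The median of the 12 was 0.067 without wild-type replicate 1, 0.14 without wild-type replicate 2 and 0.65 without wild-type replicate 3. In that last setting 7 of the 12, or 58.3%, had an unadjusted p under 0.05, beside 16.1% of all genes. Gss, glutathione synthetase, was at 11.6, 17.3 and 17.7 TPM in Ts1Cje, against 8.33, 11.5 and 13.1 TPM in wild-type libraries (log2 fold change 0.52 ± 0.25, SE). Gsr, which regenerates reduced glutathione, was at 182, 184 and 169 TPM in Ts1Cje, against 63.3, 119 and 214 TPM in wild-type libraries. Wild-type libraries spread on both sides of the Ts1Cje ones, as they did for G6pdx, which supplies NADPH, at 202, 192 and 186 TPM in Ts1Cje against 90.7, 127 and 232 TPM in wild-type. Slc3a2, a chain of the cystine transporter, had a log2 fold change of -0.35 ± 0.25 (SE) and lies on chromosome 19 like Prdx5.

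Selenoprotein synthesis, on which Gpx1 and Gpx4 depend, had all 9 genes tested and a median of 0.07. Sepsecs, which makes the selenocysteine carried by its tRNA, was at 12.4, 10.002 and 11.8 TPM in Ts1Cje, against 8.21, 9.21 and 8.46 TPM in wild-type libraries, without overlap (log2 fold change 0.41 ± 0.17, SE; unadjusted p = 0.0467). Lrp8, a receptor for selenoprotein P, had 1.10 ± 0.71, Secisbp2, which recruits the recoding machinery, 0.21 ± 0.23, and Pstk, a kinase of the same tRNA pathway, -0.19 ± 0.23 (SE).

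Among 14 genes of superoxide production 10 were tested, with a median of 0.24. Nox3 had 92, 9 and 161 counts in Ts1Cje and 12, 5 and 19 counts in wild-type libraries (log2 fold change 2.61 ± 0.98, SE; unadjusted p = 0.0303), and Ts1Cje replicate 2 lay among the wild-type libraries. Subunits and partners of the phagocyte oxidase overlapped between genotypes: Rac1 had 0.36 ± 0.24, Rac2 0.27 ± 0.21 and Ncf4 0.33 ± 0.25 (SE).

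Of the regulators of antioxidant genes all 12 were tested, with a median of -0.13. Bach1, a repressor that competes with NRF2 and lies 2.52 Mb before Sod1, was at 16.9, 15.7 and 9.50 TPM in Ts1Cje, against 25.7, 21.4 and 16.4 TPM in wild-type libraries (log2 fold change -0.61 ± 0.25, SE; unadjusted p = 0.0420), with overlap between Ts1Cje replicate 1 and wild-type replicate 3. Mafg, a partner of both factors, was at 52.7, 56.2 and 62.3 TPM in Ts1Cje, against 34.3, 37.1 and 50.9 TPM in wild-type libraries, without overlap (0.50 ± 0.18, SE; unadjusted p = 0.0277). Hmox1, a target of Bach1 and NRF2, was at 765, 785 and 1697 TPM in Ts1Cje, against 445, 506 and 836 TPM in wild-type libraries (0.91 ± 0.40, SE; unadjusted p = 0.0557). Bach2, a relative of Bach1, was below 1 TPM in every library, with -1.10 ± 0.53 (SE). Each p in these list paragraphs is from edgeR, and the adjusted p of the 8 genes with an unadjusted p under 0.05 was 0.792.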

How the data were processed

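RNA sequencing of 6 libraries was used. Per the submitters' processing notes, reads passed FastQC 0.11.7, Trimmomatic 0.38, HISAT2 2.1.0 (mm10) and featureCounts 1.6.3; strand setting, handling of reads with several positions and annotation are not given in the sources used here. Raw counts per gene and TPM were deposited by the authors, with 1 column per library. For 3708 of 3765 genes with at least 1000 counts in every library the deposited TPM matched counts divided by the summed exon length in GENCODE M21 within 1%. Of the gene identifiers 55227 were found in M21, 54784 at identical positions.

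Genotypes were compared on counts with edgeR 4.0.16 (R 4.3.3) in a model of genotype alone. The filter was filterByExpr (minimum 10, total 15), the scaling TMM and the test quasi-likelihood, adjusted by Benjamini-Hochberg over 13821 genes with a threshold of 0.05. SE is the log2 fold change over the root of F; intervals are at 95% with the fit's degrees of freedom. CPM use filtered totals and TMM factors; limits for 0 counts use full totals. Log2 CPM have a prior count of 2. The tests were also run on counts simulated with a common spread for all genes and no outlying library. That run does not show how they behave on these libraries. Alternatives used DESeq2 1.42.0 and limma 3.58.1. Copies of members were searched with blastn 2.17.0 (coding sequence, at least 85% identity over 200 bases). Limits for 0 counts cover counting error only.

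The members and lists were chosen with earlier results of these data known. Named were all members, their copies, genes next to Sod1, the 3 genes most like it (1 is not reported here), and up to 4 genes with the smallest p per list; Catsper genes and Catip, which share only their first letters with Cat, are no copies and were left out.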

Additional observations from a re-analysis of the deposited data

How the results depend on the processing

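No member was called under any of the 17 alternatives tried. Of 153 member fold changes under them 15 had the opposite sign to the main fit, in which no member was called either. The cause of the turned signs was not tested. Gpx4 was -0.018 with upper-quartile factors and -0.0042 by limma on log2(TPM + 1), with or without a TPM minimum, and on log2(TPM + 0.1). Leaving out 1 library gave -0.25 to 0.23 for Gpx4, -0.20 to 0.22 for Gpx1, -0.044 to 0.66 for Cat, -0.070 to 0.16 for Prdx2, -0.12 to 0.036 for Prdx6, 0.44 to 0.63 for Sod1, 0.30 to 0.58 for Prdx1, 0.076 to 0.37 for Sod2 and -0.27 to -0.024 for Prdx5. Over all 17 alternatives the unadjusted p of Sod1 was 0.0082 to 0.0525, under 0.05 in 16, and that of Prdx1 was 0.0229 to 0.178, under 0.05 in 4. The count of genes called over all genes was 1; it was 3 with no filter, 56 with DESeq2, 0 with the replicate number as a block and 1 to 6 with 1 library left out, the 6 being without wild-type replicate 3. Whether equal replicate numbers pair the samples is not stated in the labels. Deviations of same-numbered libraries correlated at -0.18, -0.05 and -0.06 over 13821 genes, and those of other pairs at -0.11 to 0.17. With 3 libraries a genotype these correlations cannot settle the question. Under the replicate block Sod1 was 0.51 (unadjusted p = 0.0305, edgeR). Levels on coding transcript lengths and the pathway lists with 1 library left out were alternatives chosen after seeing the data. List medians turned sign for copper and zinc delivery (-0.018 without wild-type replicate 1), the thioredoxin system (-0.0084 without Ts1Cje replicate 3), selenoprotein synthesis (-0.039 without wild-type replicate 2) and other peroxidases (0.012 without Ts1Cje replicate 1). With 3 libraries a genotype, a difference whose interval spans 0 cannot be told from 0. The interval of Sod1 lies above 0, but its adjusted p was 0.792 (edgeR).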
